A study of Mus musculus with 2 samples.

Results

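The genes of the MYC and MAX network were measured in polyadenylated RNA from the mouse embryonic stem cell (mESC) line iXist-ChrX-Dom. The set holds the MYC family factors Myc and Mycn, their shared partner Max, and the repressive partners of Max, which are Mga, Mnt, Mxd3, Mxd4 and Mxi1. These 8 genes were taken by symbol, and all 8 were found among the 22556 genes of the count table. The line is a single female line of Dom/129S x Cast origin in which the endogenous Xist promoter of the Dom/129S allele was replaced with a TetOn promoter. The series has 1 group of 2 replicates, both untreated (0 h, no doxycycline), from medium with serum and LIF, and the feeder fibroblasts had been removed by pre-plating. There is therefore no contrast between conditions, and nothing in the labels says whether the replicates are separate cultures. The questions were how strongly each gene of the network was expressed before Xist induction, and how well the 2 libraries agree on it.

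The count of fragments over all genes was 23716499 in replicate 1 and 20275749 in replicate 2. The labels give the cell type as mESC to NPC (neural precursor cell), while the source name is mESC, so marker genes were checked. All 9 ES cell markers were above 3 counts in both libraries, and together they reached 3676 and 2916 CPM (counts of a gene per 1000000 counts of its library). The libraries stood apart on some of these, with Pou5f1 at 1129 and 142 counts and Dppa5a at 2915 and 298, while Nanog was at 13460 and 10151. The 8 fibroblast markers summed to 2.49 and 0.888 CPM, with Lum at 0 in both libraries and Thy1, the highest of them in replicate 1, at 1.35 and 0.0986 CPM. The neural precursor markers summed to 2.19 and 1.33 CPM, of which Pax6 made up 1.94 and 1.13 CPM, with Sox1 and Olig2 at 0, and the 5 primitive endoderm markers to 4.98 and 4.64 CPM.

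MYC and MYCN are transcription factors of the basic helix-loop-helix leucine zipper class. They bind DNA as heterodimers with MAX at the E-box CACGTG and drive genes of growth, ribosome production and metabolism. MNT and the MXD proteins, of which Mxi1 encodes one, compete for MAX and bring the SIN3 corepressor with its histone deacetylases to the same E-boxes. MGA is a very large MAX partner with a T-box as a further DNA-binding domain, and in ES cells it is a subunit of a Polycomb complex, PRC1.6, known for keeping germline genes down. In mESCs, Myc and Mycn are known to share a role in self-renewal.

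The E-box was looked up in promoter windows of 300 bases, from 250 before to 50 after each RefSeq start site (GRCm38.p6, the assembly of mm10). CACGTG reads the same on both strands. It was present in 7.15% of the 32851 windows and in 8.09% of the 27025 genes that have one or more windows. Windows were found for 7 of the 8 network genes, all but Myc. The windows of Max, Mnt and Mxd4 each held 1 match, and those of Mycn, Mga, Mxd3 and Mxi1 held none. Of the gene lists described below, it was found in 7 of 24 genes that MYC activates and in 7 of 10 germline genes. It was found in 2 of 7 other genes of the network, in 1 of 8 subunits of the MGA complex, 1 of 7 of the SIN3 complex and 1 of 12 MYC cofactors, and in none of 10 genes of MYC turnover or of 4 genes that MYC represses. The windows of the 3 network genes with a match are printed 5′ to 3′ on the strand of the gene, and after them the window with the most matches among the germline genes (Sycp3) and among the genes that MYC activates (Cdk4). The capitals mark the E-box. The match of Max (chr12:76962199-76962498, minus strand) starts 3 bases before the start site, that of Mnt (chr11:74830674-74830973, plus strand) 123 bases and that of Mxd4 (chr5:34187661-34187960, minus strand) 219 bases before it. Sycp3 (chr10:88459337-88459636, plus strand), which encodes a protein of the meiotic synaptonemal complex, had 2 matches, 64 and 43 bases before the start. Cdk4 (chr10:127063285-127063584, plus strand), a kinase of the G1 phase, had 4 matches, at 172, 118, 98 and 11 bases. The RefSeq start of Max is also the start of the deposited gene, but the bases that follow it were not found in a GENCODE transcript of Max, so its position rests on the RefSeq start. A match describes the letters of a window and does not show binding, and the absence of one says only that these letters are not in that window.
Max: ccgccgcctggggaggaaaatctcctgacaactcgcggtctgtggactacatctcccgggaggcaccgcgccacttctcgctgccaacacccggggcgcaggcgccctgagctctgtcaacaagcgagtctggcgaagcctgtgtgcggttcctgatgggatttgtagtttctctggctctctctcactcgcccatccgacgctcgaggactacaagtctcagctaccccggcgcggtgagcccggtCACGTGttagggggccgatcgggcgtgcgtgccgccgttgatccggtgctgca
Mnt: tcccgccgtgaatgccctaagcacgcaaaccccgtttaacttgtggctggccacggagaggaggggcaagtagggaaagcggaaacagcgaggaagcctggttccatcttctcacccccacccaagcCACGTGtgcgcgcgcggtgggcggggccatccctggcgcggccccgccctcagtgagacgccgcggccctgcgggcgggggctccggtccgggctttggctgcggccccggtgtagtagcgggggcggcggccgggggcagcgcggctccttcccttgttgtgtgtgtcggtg
Mxd4: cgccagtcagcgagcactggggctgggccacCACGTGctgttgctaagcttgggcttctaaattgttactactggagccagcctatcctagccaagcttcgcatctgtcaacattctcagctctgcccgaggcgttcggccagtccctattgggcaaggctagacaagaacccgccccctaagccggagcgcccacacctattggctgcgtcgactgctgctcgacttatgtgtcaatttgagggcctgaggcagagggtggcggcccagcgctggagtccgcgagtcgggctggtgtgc
Sycp3: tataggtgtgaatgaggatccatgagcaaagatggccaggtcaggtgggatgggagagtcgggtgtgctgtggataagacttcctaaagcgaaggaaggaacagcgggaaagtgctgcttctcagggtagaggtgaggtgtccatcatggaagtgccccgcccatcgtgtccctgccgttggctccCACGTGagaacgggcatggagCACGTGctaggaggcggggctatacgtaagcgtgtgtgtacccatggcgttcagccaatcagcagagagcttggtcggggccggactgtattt
Cdk4: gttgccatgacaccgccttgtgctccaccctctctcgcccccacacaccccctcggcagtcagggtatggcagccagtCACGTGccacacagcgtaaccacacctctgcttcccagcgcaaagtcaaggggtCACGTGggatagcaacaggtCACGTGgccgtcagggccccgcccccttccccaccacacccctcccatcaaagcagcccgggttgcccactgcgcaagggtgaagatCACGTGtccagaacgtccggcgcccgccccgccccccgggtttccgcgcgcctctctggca

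Levels of different genes are given as TPM, which are counts per kb of length, scaled to the same sum in every library. The length was the deposited one, which spans the whole transcript with its introns (span length), or the union of annotated exons (exonic length). The counts were the same on both scales and include any fragments over introns. Such fragments can raise exonic TPM, most of all where introns are long. The network fell into a high and a low part on both scales. Mga, Mycn and Max stood at 88.2 TPM or more in every library, Mxi1 lay between 12.98 and 27.2 TPM, and Mnt, Mxd3, Mxd4 and Myc reached 7.71 TPM at most. With exonic length the order was Max, Mga, Mycn, Mxi1, Mnt, Mxd3, Mxd4 and Myc. With span length it was Mga, Mycn, Max, Mxi1, Mnt, Mxd3, Myc and Mxd4. The ranges of the 2 replicates overlapped for Mxd4 and Myc on both scales and for Mga and Mycn with span length, so these neighbours did not differ beyond their spread. All other neighbours had ranges that did not overlap, with only 2 replicates behind each.

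**Figure D1:**
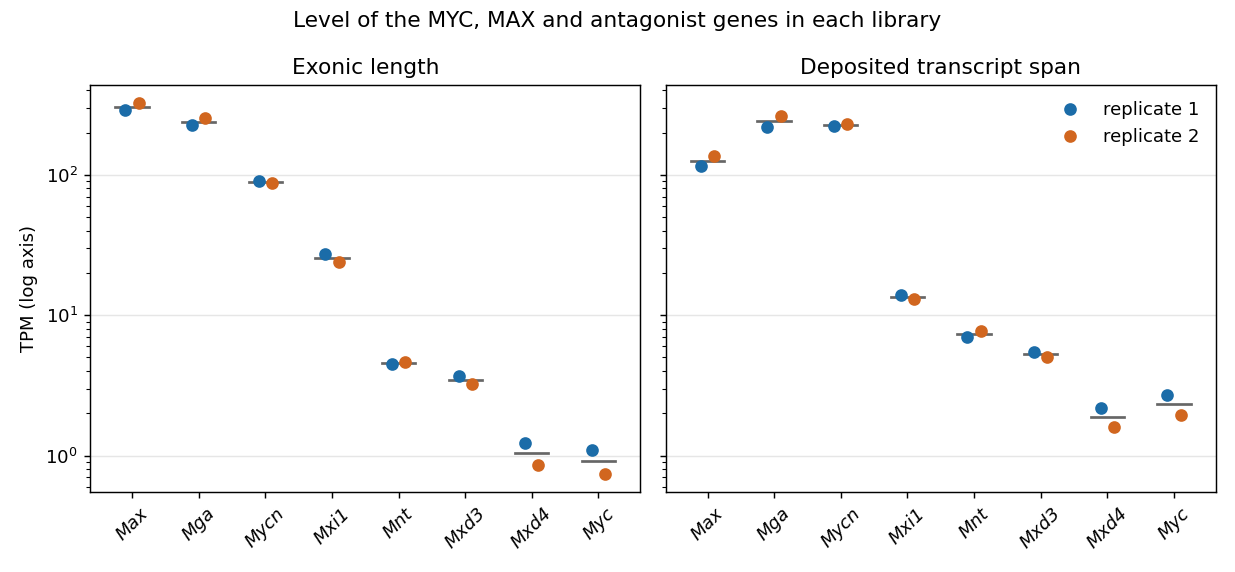
TPM of each gene in replicate 1 (blue) and replicate 2 (orange) on a log axis, with exonic length (left) and span length (right). The grey bars are means of 2 replicates. Max, Mga and Mycn lie well above Mnt, Mxd3, Mxd4 and Myc on both scales, while the order among the top 3 depends on the length.

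Mycn was the MYC family factor that was expressed strongly. Mycn (chr12:12936092-12941836, minus strand, 3 exons) had 1892 counts (79.8 CPM) in replicate 1 and 1495 counts (73.7 CPM) in replicate 2. With span length this gave 222 and 230 TPM, and with exonic length 89.8 and 88.2 TPM (mean 88.98 ± 1.10, SD, n = 2). The 2 libraries placed it within a narrow range on either scale. By mean exonic TPM it ranked 2494 of 22113 genes with an exonic length.

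Myc, the better-known paralog, was close to the limit of what these libraries can measure. Myc (chr15:61985340-61990361, plus strand, 3 exons) had 20 counts in replicate 1 and 11 in replicate 2. These are 0.843 CPM (95% Wilson interval 0.546 to 1.30) and 0.543 CPM (0.303 to 0.972), and the intervals overlap. Both exceeded the detection floor of 3 counts, the upper limit for a gene without any count, which is 0.126 CPM in replicate 1 and 0.148 CPM in replicate 2. With exonic length Myc stood at 1.09 and 0.744 TPM, and with span length at 2.68 and 1.94 TPM. Bulk RNA cannot tell a low level in all cells from a higher level in a few of them.

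Mycn exceeded Myc by 82.7-fold in replicate 1 (95% exact counting interval 53.4 to 136) and by 119-fold in replicate 2 (66.2 to 239), per kb of span. Exonic length gave 82.6-fold and 119-fold, because the 2 genes have similar lengths on either scale, 5022 and 5745 bp of span and 2447 and 2804 bp of exons. The gap was thus larger than any difference between replicates or lengths. The 2 transcripts were close in GC content, 53.3% for Myc and 54.8% for Mycn. No 50-base word of either transcript occurred in a transcript of another gene, and no exon of either lay under another gene of the same strand in the table.

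Of the other MYC paralogs, Mycl was above Myc as well. Mycl, named here after its values were seen, had 186 and 191 counts, or 6.77 and 8.64 TPM with exonic length. Bmyc, which encodes a short MYC-like protein without the DNA-binding part, had 42 and 28 counts, but 60.9% of its 50-base words also occur in transcripts of other genes, so that its level is uncertain. The intronless Mycs, also named after its values were seen, had 1 count in replicate 1 and 0 in replicate 2, which is under that floor.

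Max, the obligate partner of the network, was abundant in both libraries. Max (chr12:76937268-76962248, minus strand, 5 exons) had 4260 and 3822 counts, or 179.6 and 188.5 CPM. With exonic length it reached 289 and 323 TPM (mean 306 ± 23.7, SD, n = 2) and ranked 647. With span length, in which introns make up most of 24981 bp against 1958 bp of exons, it stood at 115 and 135 TPM. Replicate 2 was the higher on all 3 scales.

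Max was set against the sum of its 7 measured partners. With exonic length Max reached 0.820 of the partner sum in replicate 1 and 0.859 in replicate 2. With span length the ratio was 0.243 and 0.260. Max was below the sum on both scales in both libraries, but how far below was set by the length and not by the replicate.

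Mga had the most counts of the network. Mga (chr2:119897227-119969581, plus strand, 24 exons) had 23638 counts (997 CPM) in replicate 1 and 21425 counts (1057 CPM) in replicate 2, and ranked 105 of 22556 genes by mean CPM. Its exonic length of 13931 bp is also the longest of the 8, so its rank by exonic TPM was 900. Mga stood at 226 and 254 TPM with exonic length (mean 240 ± 20.3, SD, n = 2) and at 220 and 262 TPM with span length. Unlike the other 7 genes, its mean moved by less than the spread between replicates when the length was exchanged.

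The 10 subunits of the MGA complex on the list were mostly well expressed too. Their median exonic TPM was 114, against 1.86 over all genes and 18.4 over all genes at 1 exonic TPM or more. On this scale 9 of 10 were at 10 TPM or more, beside 7537 of the 22113 genes with an exonic length. Rnf2, a ubiquitin ligase for histone H2A, had 7154 and 7848 counts, or 285 and 388 TPM with exonic length. Pcgf6, the subunit that defines this complex, stood at 232 and 249.9 TPM, close to the level of Mga itself. L3mbtl2, another chromatin-binding subunit, was lower at 17.2 and 7.54 TPM. Ring1, the paralog of Rnf2, had 9 counts and 1 count. Of the 10, 4 were higher and 3 lower in replicate 2 by the test of the libraries described below, beside 15.1% and 45.7% of all genes tested. With TMM scaling, by the trimmed-mean factors of edgeR, 6 were higher and 2 lower, beside 28.8% and 28.9%. Against the ratio that GC content predicts (described below), 5 were higher and 2 lower, beside 23.9% and 21.6%.

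Germline genes, which this complex is known to repress, had a median of 23.4 exonic TPM over 10 genes, beside 18.4 over all genes at 1 TPM or more. At 10 TPM or more were 6 of 10, beside 7537 of 22113 genes. Dazl, an RNA-binding protein of germ cells, had 2766 and 3479 counts, or 121 and 189 TPM. Sycp3 had 1786 and 2176 counts, or 188 and 285 TPM, but 50.4% of its 50-base words also occur elsewhere. Mael, which acts in transposon silencing, stood at 35.3 and 23.9 TPM, and Tdrd1, of the same pathway, at 1.25 and 0.790 TPM (51 and 26 counts). These had the largest replicate differences of the list past the test, with log2 ratios of −0.65 and −0.73. At the other end of the list, Tex101, named after its values were seen, had 0 counts in both libraries. Of the 9 germline genes tested, 5 differed between the libraries, beside 60.8% of all genes. Of these, 3 were higher and 2 lower in replicate 2, beside 15.1% and 45.7% of all genes. With TMM scaling 6 were higher and 1 lower, beside 28.8% and 28.9% of all genes. Against the ratio that GC content predicts, 3 were higher and 1 lower, beside 23.9% and 21.6%. A list median above that of all genes is a description and was not tested.

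The remaining antagonists were lower than Mga. Mxi1 (chr19:53310505-53375810, plus strand, 3 annotated transcripts), an MXD protein gene, had 1360 and 958 counts, or 57.3 and 47.2 CPM. With exonic length it stood at 27.2 and 23.8 TPM, and with span length at 14.04 and 12.98 TPM. Replicate 1 was higher on each scale, and Mxi1 lay between the high and the low part of the network.

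Mnt (chr11:74830923-74845725, plus strand), the antagonist that is otherwise known for broad expression, had 154 and 129 counts. This gave 6.49 CPM (95% Wilson interval 5.55 to 7.60) and 6.36 CPM (5.36 to 7.56), or 4.46 and 4.65 TPM with exonic length. It had the highest GC content of the 8, at 59.5%, and its CPM values differed by 2.02% between the replicates.

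Mxd3 and Mxd4, a pair of MXD genes, were near the bottom of the range. Mxd3 (chr13:55325167-55329730, minus strand), known for expression in dividing cells, had 37 and 26 counts, which is 1.56 CPM (1.13 to 2.15) and 1.28 CPM (0.875 to 1.88). Mxd4 (chr5:34176579-34187710, minus strand), known for expression in differentiating cells, had 36 and 20 counts, which is 1.52 CPM (1.10 to 2.10) and 0.986 CPM (0.639 to 1.52). With exonic length Mxd3 stood at 3.71 and 3.24 TPM and Mxd4 at 1.23 and 0.852 TPM. The intervals of the 2 replicates overlapped for both genes. Mxd1, the founding MXD gene, which is outside the set and was named after its values were seen, had 106 and 66 counts, or 3.02 and 2.34 TPM with exonic length.

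Transcripts of most listed genes of the corepressor through which MNT and the MXD proteins act were abundant by comparison. The level of the complex itself was not measured. Over 8 SIN3-HDAC genes the median was 199 exonic TPM, and 7 of 8 were at 10 TPM or more, beside 7537 of 22113 genes. Rbbp7, a histone-binding subunit, stood at 1406 and 1299 TPM, and Sap30 at 430 and 306 TPM. Sin3b was the exception below 10 TPM in the mean, at 13.9 and 5.73 TPM. It had the largest replicate difference of the list (log2 ratio −1.37), followed by Suds3, another SIN3 subunit, at 41.7 and 21.2 TPM (−1.06). All 8 were lower in replicate 2, beside 45.7% of all genes, but with TMM scaling 5 were lower and 1 higher, beside 28.9% and 28.8%. Against the ratio that GC content predicts (described below), 7 were lower and none higher, beside 21.6% and 23.9%.

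Transcripts of the Max partners were thus dominated by Mga and Mycn. With exonic length Mga made up 65.8% ± 2.66 (SD, n = 2) of the summed partner TPM, Mycn 24.4% ± 1.38, Mxi1 7.02% ± 0.964, and Mnt 1.25% ± 0.0191. Mxd3 held 0.956% ± 0.133, Mxd4 0.288% ± 0.0867 and Myc 0.253% ± 0.0778. With span length Mga held 48.4% ± 2.64 and Mycn 45.5% ± 1.93, so that their proportion depended on the length. Mga has 72355 bp of span against 13931 bp of exons, and Mycn 5745 bp against 2804 bp. The part of intronic fragments in these shares was not measured.

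**Figure D2:**
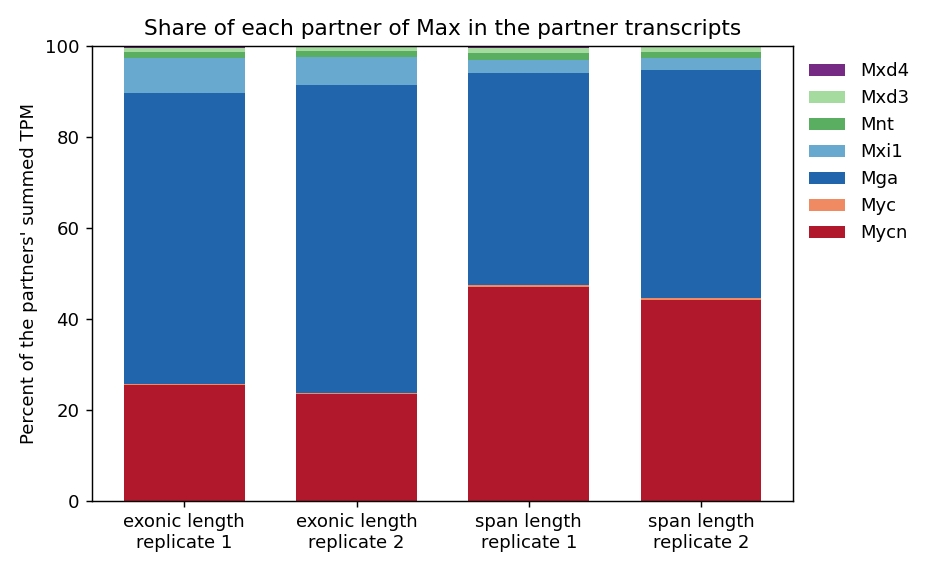
Percent of the summed TPM of the 7 Max partners taken by each gene, in each replicate and with each length. Mga (dark blue) and Mycn (red) fill most of every bar, and the bars differ more between lengths than between replicates.

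The antagonists together exceeded the MYC factors together on each scale. With exonic length Mga, Mnt, Mxd3, Mxd4 and Mxi1 summed to 2.89 times Myc and Mycn in replicate 1 and to 3.23 times in replicate 2. With span length the ratio was 1.11 and 1.25. Mga carried most of this sum. RNA levels do not give protein levels, which were not measured here.

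Agreement between the libraries was tested for each gene with a two-sided exact binomial test of its 2 counts against the ratio of library totals, adjusted by Benjamini-Hochberg over the 14536 genes with at least 10 counts in total. This test compares 2 libraries, not conditions, and covers counting error only. All 8 network genes entered it. The counts differed beyond sampling noise for 3 of the 8, while 60.8% of all genes tested did so, 15.1% higher and 45.7% lower in replicate 2.

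The 3 differences were small. Mga was higher in replicate 2 by a log2 ratio of 0.08 (adjusted p = 2.45e-09, exact binomial). Mxi1 was lower by a log2 of −0.28 (adjusted p = 1.19e-05, exact binomial), and Mycn was lower by −0.11 (adjusted p = 0.039, exact binomial). Max, at a log2 of 0.07, had an adjusted p of 0.05001 in the same exact test and fell just outside the threshold of 0.05. Mnt (−0.03), Mxd3 (−0.27), Myc (−0.61) and Mxd4 (−0.61) did not pass, with adjusted p from 0.195 to 0.936 (exact binomial), and the depth of the last 3 does not allow small differences to be seen.

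For 5 of the network genes, both libraries held 50 counts or more, and these were set beside all 9736 genes of that depth. Their log2 ratios ran from −0.28 to 0.08, inside the central 95% of all these genes, −1.54 to 0.49. The median was −0.03 for these 5 and −0.17 for all. Over all 8 network genes the median was −0.19, beside −0.31 over all genes tested.

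The direction of some of these differences depended on the scaling of the libraries. TMM factors of edgeR raise every log2 ratio by 0.26. With them 3 genes passed again, but 2 of these were among the 3 named above. Mycn (adjusted p = 0.00915, exact binomial), Max (adjusted p = 3.71e-23) and Mga (adjusted p = 7.14e-136) were then all higher in replicate 2, so that Mycn turned its direction, and Mxi1 no longer passed (adjusted p = 0.792). Of all genes 57.7% passed with TMM factors, 28.8% higher and 28.9% lower. DESeq2 size factors gave the same 3 network genes, all higher, beside 57.8% of all genes, 31.6% higher and 26.1% lower. When each library had to hold 10 counts, 4 network genes passed, Max and Mga higher and Mycn and Mxi1 lower, beside 65.2% of all genes, 17.5% higher and 47.7% lower. Without a filter the 3 genes were those of the test as first given, beside 48.5% of all genes, 12.1% higher and 36.4% lower.

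GC content moved with the replicate difference over the whole table. Over 9235 autosomal genes the log2 ratio had a Spearman's rho of −0.65 with GC content of the longest transcript, a correlation across genes. Of the network, Mga had the lowest GC content at 42.2% and lay on the trend, where a log2 ratio of 0.09 was predicted and 0.08 measured. Mycn, Max and Mnt lay above it by 0.58, 0.49 and 0.74. Against the ratio that the trend predicts, these 3 passed the exact test as higher in replicate 2 (adjusted p = 1.35e-29, 8.12e-50 and 8.58e-05), and Mga and Mxi1 did not (0.921 and 0.230). By that measure 45.6% of 14389 genes passed, 23.9% higher and 21.6% lower. The part of GC content in the replicate differences was not tested further.

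**Figure D3:**
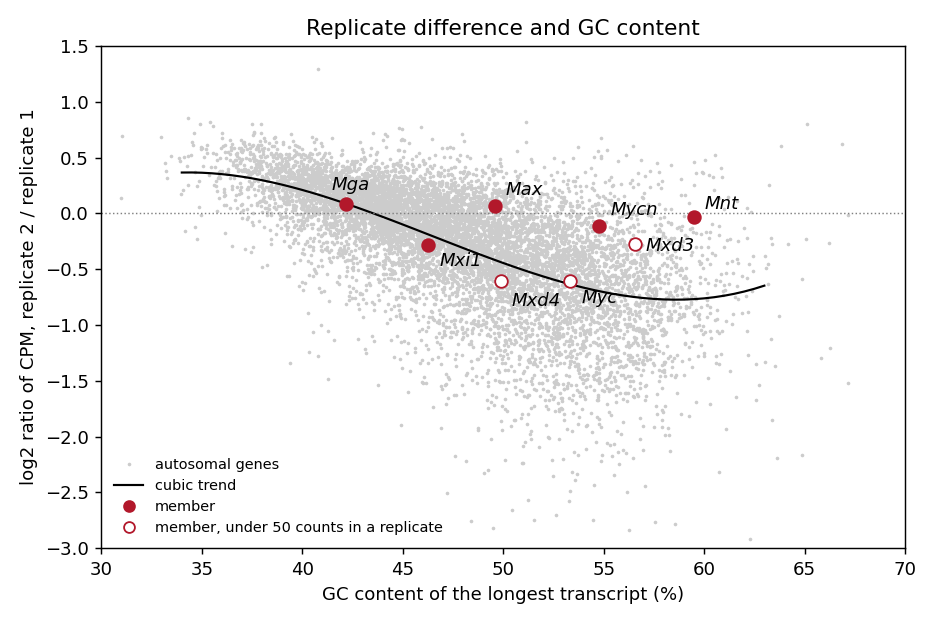
Log2 ratio of CPM, replicate 2 over replicate 1, against the GC content of the longest transcript for 9235 autosomal genes (grey, 50 or more counts in both libraries, 5 genes outside the axes), with the cubic trend (black) and the 8 network genes (red, open where a replicate has under 50 counts). Mga lies on the trend, and Max, Mycn and Mnt lie above it near a ratio of 0.

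Replicate differences were also counted for genes around the network. Of 94 listed genes in the table, with Pvt1, the neighbour of Myc, among them, 92 were tested and 75 differed beyond sampling noise, 15 higher and 60 lower in replicate 2, beside 60.8% of all genes, 15.1% higher and 45.7% lower. With TMM factors 76 differed, 29 of them higher and 47 lower, beside 28.8% and 28.9% of all genes. With the GC trend as expectation 19 were higher and 40 lower, beside 23.9% and 21.6%. The median log2 ratio was 0.23 for the germline genes, −0.00 for the MGA complex subunits, −0.63 for the other network genes, −1.04 for the MYC cofactors, −0.50 for the SIN3-HDAC genes, −0.45 for the turnover factors, −0.66 for the genes that MYC activates and −0.40 for those it represses, beside −0.31 over all genes tested. The median GC content of the listed genes was 50.6%, against 49.3% over all genes tested. The listed genes were also deeper. Of the 92 tested, 75 held 50 counts or more in both libraries, beside 9736 of the 14536 genes tested. Deeper genes pass this test at smaller differences, and the shares above are not matched for depth.

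The MLX branch parallels MAX with its own set of partners. Mlx itself, with 17.5% of its 50-base words also found elsewhere, had 568 and 165 counts, a log2 ratio of −1.55 (adjusted p = 8.45e-39, exact binomial). Mlxipl, a glucose-responsive factor, had 57 and 19 counts. Of the 6 other network genes tested, 3 passed, all lower in replicate 2, beside 45.7% of all genes, and all were of this branch. With TMM scaling 3 were lower and 1 higher, beside 28.9% and 28.8%, and with the GC trend as expectation 1 was lower and 1 higher, beside 21.6% and 23.9%.

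Cofactors through which MYC activates genes had a median of 21.2 exonic TPM over 13 genes, beside 18.4 over all genes at 1 TPM or more. Of these, 11 differed, all lower in replicate 2, beside 45.7% of all genes. With TMM factors 10 were lower and 1 higher, beside 28.9% and 28.8%, and with the GC trend 7 were lower and 2 higher, beside 21.6% and 23.9%. Their median GC content was 53.6%. Wdr5, a scaffold of histone methyltransferases that is also a subunit of the MGA complex, stood at 231 and 119 TPM, and Hcfc1, a chromatin-bound host cell factor, at 38.2 and 25.9 TPM. The largest differences in this list were for Ruvbl2, an ATPase, with 155 and 35 counts (log2 ratio −1.90, adjusted p = 1.18e-14, exact binomial), and for Kat5, an acetyltransferase, with 278 and 74 counts (−1.68, adjusted p = 1.64e-21).

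Factors that set the stability of the MYC proteins had a median of 45.9 exonic TPM over the 10 of 11 genes found in the table. Usp28, a deubiquitinase of MYC, reached 395 and 327 TPM and Huwe1, a ubiquitin ligase of MYC and of MYCN, 263 and 246 TPM. Of the 10 tested, 2 were higher and 7 lower in replicate 2, beside 15.1% and 45.7% of all genes, and 4 and 5 with TMM scaling, beside 28.8% and 28.9%. With the GC trend as expectation 3 were higher and 4 lower, beside 23.9% and 21.6%. The largest differences were those of the mitotic kinases Plk1, with 131 and 21 counts (log2 ratio −2.39, adjusted p = 1.77e-16, exact binomial), and Aurka, with 1074 and 273 counts (−1.75, adjusted p = 1.60e-85).

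Genes known to be activated by MYC were well expressed. Their median was 60.7 exonic TPM over 30 genes, beside 18.4 over all genes at 1 TPM or more. At 10 TPM or more were 21 of 30, beside 7537 of 22113 genes. Myc itself stood at 0.915 ± 0.243 TPM (SD, n = 2) and Mycn at 88.98 TPM. Npm1, a nucleolar chaperone, stood at 9040 and 10324 TPM, although 40.9% of its 50-base words also occur elsewhere, and Dkc1, a pseudouridine synthase, at 2585 and 2230 TPM. Cdk4, whose promoter is printed above, was at 79.9 and 39.0 TPM, with 29.5% of its words shared. In replicate 2, 4 of the 30 were higher and 23 lower, beside 15.1% and 45.7% of all genes. The largest differences were for Srm, spermidine synthase, with 39 and 5 counts (log2 ratio −2.62, adjusted p = 3.44e-06, exact binomial), and Mybbp1a, a nucleolar protein, with 1001 and 169 counts (−2.34, adjusted p = 7.53e-116). With TMM scaling 8 were higher and 19 lower, beside 28.8% and 28.9% of all genes, and with the GC trend as expectation 3 and 17, beside 23.9% and 21.6%.

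Genes known to be repressed by MYC were detected too. Their median was 17.8 exonic TPM over 6 genes, beside 18.4 over all genes at 1 TPM or more. Cdkn1b, an inhibitor of cyclin-dependent kinases, stood at 71.04 and 104.7 TPM, Gadd45a, a stress-response gene, at 75.2 and 91.3 TPM, and Cdkn2b, another such inhibitor, at 5.74 and 2.86 TPM. Cdkn2b (log2 ratio −1.08) and Ndrg1, a gene of stress and differentiation at 25.7 and 15.1 TPM (−0.85), had the largest replicate differences of the list. Of the 6 tested, 2 were higher and 3 lower in replicate 2, beside 15.1% and 45.7% of all genes, and 2 and 2 with TMM scaling, beside 28.8% and 28.9%. With the GC trend as expectation 2 were higher and 1 lower, beside 23.9% and 21.6%.

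**Figure D4:**
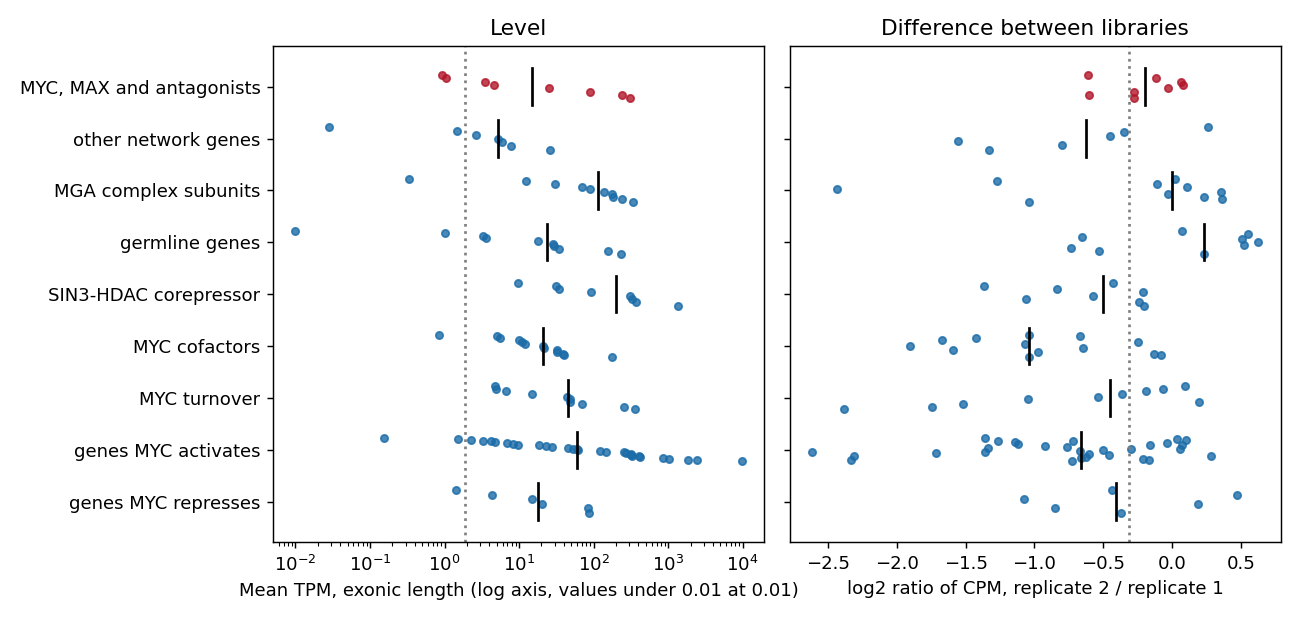
Mean exonic TPM on a log axis (left) and log2 ratio of CPM, replicate 2 over replicate 1 (right), for each network gene (red) and each gene of 8 lists around the network (blue). Black bars are list medians and dotted lines the median over all genes, and Tex101 at 0 TPM is drawn at the left edge. The median log2 ratio was −0.19 for the network genes and −1.04 for the MYC cofactors.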

How the data were processed

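Per the file headers, the authors counted whole fragments with featureCounts (version 1.5.2) in reverse-stranded mode. The features were transcripts of a non-redundant long RNA annotation on mm10. The deposited counts per gene thus include any fragments over introns, and the deposited length is the transcript span. The study's methods state that few reads of the mRNA data are intronic, and their share was not measured here. The submitters' processing notes also name Bowtie2 (2.3.2) and STAR (2.4.2a), but the alignment of these mRNA libraries is not given in the sources used here. Polyadenylated RNA was isolated with oligo-dT beads. Count columns were matched to samples by name, although a letter b in the samples' descriptions is missing from the column names.

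From the counts, CPM and TPM were computed with the span length, and with the union of exons of GENCODE M21 basic (GRCm38), found for 21258 genes by symbol and 855 by an older symbol (98.0%). GC content was that of the longest GENCODE transcript. The study's methods average 2 replicates, as was done here. The exact binomial test was run with SciPy (1.17.1), and a log2 ratio was taken on CPM after adding 0.5 counts. The test was checked on simulated counts with counting error alone. That check does not show how the test behaves with further variation between libraries. TMM factors came from edgeR (4.0.16) and size factors from DESeq2 (1.42.0) in R (4.3.3). A quasi-likelihood contrast could not be fitted with 1 group. The GC trend was a polynomial of degree 3. Intervals and floors cover counting error only, since no molecular identifiers were used and reads may be copies of one molecule.

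TPM is transcripts per 1000000 and CPM counts per 1000000. No column of per-sample values was left out. The members and lists were chosen with earlier results of these data known. All 8 members are named, and of each list the 2 genes with the highest mean TPM (span length) and the 2 largest replicate differences past the test, with other names marked. In list counts a gene of 2 lists counts in each. Promoter windows are from RefSeq (GRCm38.p6). A marker gene of the neural precursor list is not reported here.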

Additional observations from a re-analysis of the deposited data

How the results depend on the processing

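Over 15 results and 59 alternatives, 45 left a value within the spread between replicates or a count within 1.5 times, 12 moved it and 2 reversed it. For the median log2 ratio of the 8 genes, the spread used was instead the SD across these genes, 0.275. The length moved the sums most. The log2 ratio of antagonists to MYC factors was 0.24 with span length, 1.61 with exonic length and 3.81 with CPM, and that of Max to all partners was −1.99, −0.25 and −2.66. The log2 ratio of Mycn to Myc was 6.61 with span length, 6.60 with exonic length and 6.79 with CPM. Across the 2 single replicates, these 3 ratios ran from 0.15 to 0.32, from −2.04 to −1.95 and from 6.37 to 6.89. All 8 genes had at least 1 TPM in the mean with span length and 7 with exonic length, and 4 had at least 10 TPM. The median log2 ratio of the 8 genes between replicates turned from −0.19 to 0.12 with DESeq2 size factors, which raise every ratio by 0.31, and to 0.25 after the GC trend was removed. With TMM factors it was 0.06, which also turned its sign. That change lay within the SD across genes and was not counted as a reversal. The number of network genes past the exact test was 3 with TMM factors, with size factors, without a filter and with the GC trend, of which 2, 2, 3 and 1 were among the 3 of the test as reported. It was 4 when 10 counts were required of both libraries, with Max passing too (adjusted p = 0.047). No paired analysis was possible because all libraries belong to a single group. Depth limits Myc, Mxd3 and Mxd4, which had 11 to 37 counts in a library.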

Other observations

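The long noncoding RNA gene Pvt1 lies next to Myc on chromosome 15 (62037986 to 62250975, plus strand) and starts 47.6 kb beyond its end on the same strand. Pvt1 had 2114 counts in replicate 1 and 1309 in replicate 2, where Myc had 20 and 11. With exonic length Pvt1 stood at 50.8 and 39.1 TPM, and Myc at 1.09 and 0.744 TPM. With span length, in which the introns of Pvt1 add to its length, the values were 6.69 and 5.44 TPM for Pvt1 and 2.68 and 1.94 TPM for Myc. The counts were the same on both scales, with any fragments over introns included. Pvt1 was above Myc in both libraries on both scales. Its counts differed between the libraries beyond sampling noise, lower in replicate 2 by a log2 ratio of −0.47 (adjusted p = 1.52e-19, exact binomial), and it also passed as lower with TMM factors and with the GC trend.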
